A study of Homo sapiens with 16 samples.

Results

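The imprinted genes described here are DLK1, MEG3, NDN, MAGEL2, SNRPN, PEG3, PEG10, MEST, KCNQ1OT1 and H19, which are imprinted genes other than IGF2 and its axis. They were chosen by symbol, as 10 of the 25728 gene symbols in the count table. The choice used no threshold on their values, but earlier results of these data were known when it was made. All 10 had a row. A filter on low counts, at a minimum count of 10, kept 7 of them for testing, and MEG3, SNRPN and MAGEL2 were left out by it. RNA-seq was done on Kelly and LAN-1, established human neuroblastoma cell lines with amplified MYCN. Each line received 2 uM GSK126, an inhibitor of EZH2, or DMSO as the control, and was taken after 2 or 5 days. This made 8 groups of 2 libraries, namely Kelly DMSO, Kelly GSK126, LAN-1 DMSO and LAN-1 GSK126 at each day. The labels do not say whether duplicates were separate cultures, so p-values measure only the spread between these samples, which may be technical.

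Imprinted genes are read from the copy inherited from 1 parent, and DNA methylation laid down in the germ line marks which copy that is. DLK1, NDN, MAGEL2, SNRPN, PEG3, PEG10, MEST and KCNQ1OT1 are read from the paternal copy, and MEG3 and H19 from the maternal copy. Many of these genes are high in embryonic and placental tissue and act on growth, and they often lie in clusters controlled by a shared element. EZH2 is the methyltransferase of PRC2, which places H3K27me3, a repressive histone mark found at a number of imprinted loci beside DNA methylation. The counts do not separate the parental copies, so every value below is the sum over both.

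Promoters are shown for 3 of the genes, NDN, which rose with GSK126 in Kelly, its neighbour MAGEL2 on chromosome 15, which had few reads, and H19, which was high in LAN-1 and nearly absent from Kelly. Each window runs from 250 bases before to 50 bases after the annotated start, 5′ to 3′ on the strand of the gene, from RefSeq on GRCh38.p14. Capitals mark CpG, the dinucleotide that is methylated at imprinted loci. The windows are chr15:23687256-23687555 for NDN, chr15:23647818-23648117 for MAGEL2 and chr11:2001217-2001516 for H19, all on the minus strand.
NDN: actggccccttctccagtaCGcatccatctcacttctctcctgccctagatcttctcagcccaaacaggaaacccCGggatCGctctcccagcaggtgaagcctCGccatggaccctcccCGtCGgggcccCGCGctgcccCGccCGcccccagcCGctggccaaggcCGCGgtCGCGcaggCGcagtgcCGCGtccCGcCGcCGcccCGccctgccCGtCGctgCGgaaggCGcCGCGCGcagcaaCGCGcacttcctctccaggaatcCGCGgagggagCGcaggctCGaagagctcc
MAGEL2: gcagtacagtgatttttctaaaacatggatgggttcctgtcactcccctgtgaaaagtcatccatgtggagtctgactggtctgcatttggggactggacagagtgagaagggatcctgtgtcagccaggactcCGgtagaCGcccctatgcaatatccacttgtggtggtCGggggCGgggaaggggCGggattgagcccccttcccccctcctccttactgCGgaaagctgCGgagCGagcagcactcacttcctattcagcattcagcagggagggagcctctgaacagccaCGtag
H19: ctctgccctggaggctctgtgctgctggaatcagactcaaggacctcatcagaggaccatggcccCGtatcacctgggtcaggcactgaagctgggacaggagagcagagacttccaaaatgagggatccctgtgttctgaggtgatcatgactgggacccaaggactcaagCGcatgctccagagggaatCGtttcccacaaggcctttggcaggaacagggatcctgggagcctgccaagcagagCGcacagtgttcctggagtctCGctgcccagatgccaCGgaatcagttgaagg
The NDN window held 35 CpG, and 85.9% of the 35116 RefSeq promoter windows of that length held fewer. MAGEL2 held 9 CpG (41.6% of windows held fewer) and H19 held 6 (33.7%), against a median of 14. The letters TGCCGC, the hexamer bound by the imprint-keeping protein ZFP57 when methylated, were searched on both strands. NDN held them 1 time, and MAGEL2 and H19 did not hold them. They were present in 16.74% of all windows, and a match is a description of the letters only. These values hold for the windows shown, and any other starts of the 3 genes were not examined.

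Library totals ran from 912095 to 1666190 counts, so that a single read was worth 0.604 to 1.1 CPM, the count per 1000000 of the library total after scaling by the trimmed mean of M-values (TMM). HAND2, GATA3 and MYCN, markers of sympathetic neuroblastoma, were abundant in both lines, with lowest levels of 464, 445 and 1636 CPM. TH and DBH, enzymes of noradrenaline synthesis, were at 125.5 CPM or more in Kelly but at 4.87 CPM or less in LAN-1. Of the blood cell markers, PTPRC had 0 reads in Kelly and 1 in LAN-1, CD3E had 0 in both, and CD14 had 4 in Kelly and 5 in LAN-1. The duplicates of LAN-1 GSK126 at day 5 and of Kelly DMSO at day 2 stood farthest apart, with 2.04 and 1.835 times the variance of counting alone, against 1.11 to 1.30 in the other groups. Results that rest on these libraries are given with each of them left out where this changes a call.

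**Figure D1:**
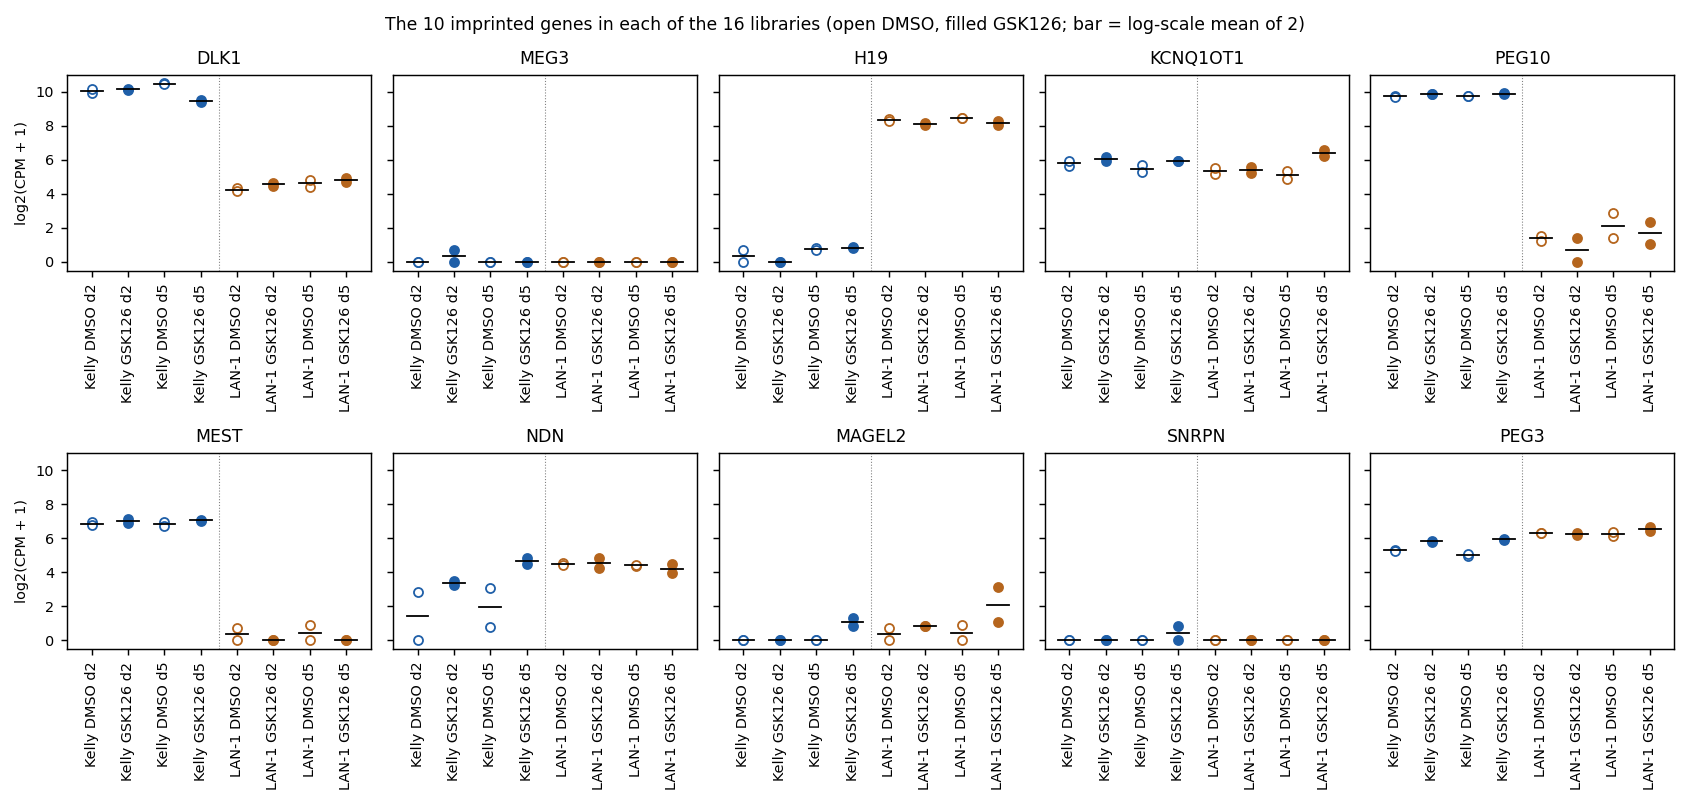
Level of each of the 10 imprinted genes in the 16 libraries, as log2(CPM + 1) on the vertical axis against the 8 groups on the horizontal axis, with open circles for DMSO, filled circles for GSK126, Kelly left and LAN-1 right of the dotted line, and bars for the log-scale mean of 2. DLK1, PEG10 and MEST were high in Kelly only, H19 in LAN-1 only, NDN in Kelly was highest with GSK126 at day 5, and MEG3 and SNRPN had 1 read each.

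In Kelly at day 5, GSK126 went with lower DLK1 and with higher NDN and PEG3. In LAN-1 at day 5, KCNQ1OT1 was higher with GSK126, and at day 2 no member was called in either line. A gene was called where the edgeR p adjusted over all 11863 tested genes was under 0.05. By this rule 3 of the 7 tested members were called in Kelly at day 5, 2 higher and 1 lower, against 4.9% of all tested genes (3.3% higher and 1.6% lower). For LAN-1 at that day it was 1 of 7, a higher one, against 3.66% of all tested genes (2.45% higher). These are counts of 3 genes and 1 gene. The median change of the 7 members in Kelly at day 5 was 0.24 on the log2 scale, against 0.0079 over all tested genes. For LAN-1 it was -0.10, against 0. Each median includes members with very few reads in that line, H19 in Kelly and PEG10 and MEST in LAN-1. The sign of the LAN-1 median is therefore not read as a result.

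At day 2, edgeR called 0 of 7 members in Kelly, where 0.185% of all tested genes were called (0.169% higher and 0.0169% lower), and 0 of 7 in LAN-1, where 0.152% were called. At an unadjusted p under 0.05 there were 2 members in Kelly, NDN and PEG3, where 7.48% of all tested genes passed that threshold. In LAN-1 there was 1, H19, where 6.24% of all tested genes passed it. DESeq2 and limma-voom also called 0 members at day 2 in each line. EZH2 itself, the enzyme inhibited, was not called. It was lower with GSK126 at an unadjusted edgeR p under 0.05 in Kelly at day 5 (16.5% of all tested genes passed that). So it was in LAN-1 at day 2 (6.24%) and at day 5 (16.7%). Its change with GSK126 at day 5 was -0.28 in Kelly (adjusted p = 0.148, edgeR) and -0.31 in LAN-1 (adjusted p = 0.211, edgeR) on the log2 scale.

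**Figure D2:**
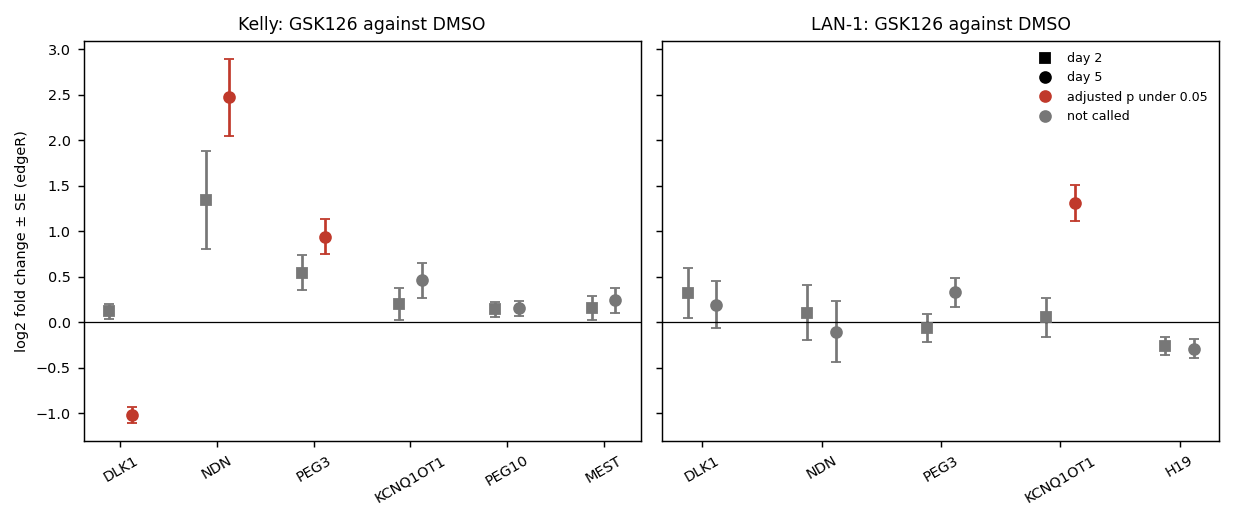
Change with GSK126 against DMSO in Kelly (left) and LAN-1 (right), as log2 fold change on the vertical axis. Bars are the standard error derived from the edgeR F statistic (n = 2 per group). The members with reads enough in that line are on the horizontal axis. Squares are day 2, circles day 5, and red marks the 4 values with an adjusted p under 0.05, namely DLK1, NDN and PEG3 in Kelly and KCNQ1OT1 in LAN-1, all at day 5.

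DLK1 is a membrane protein of the Notch ligand family that holds progenitor cells, among them cells of the sympathoadrenal lineage, in an immature state. It lies on chromosome 14 at 101192042 to 101204561 on the plus strand (GRCh37, GENCODE 44 lifted to that build). In Kelly DMSO the libraries held 963.8 and 1137 CPM at day 2 and 1448 and 1418 CPM at day 5. With GSK126 they held 1164 and 1123 CPM at day 2, which overlaps the control. At day 5 they held 735.9 and 676.6 CPM, lower than every other Kelly library. The mean at day 5 was 1434 ± 21.2 CPM in DMSO and 706.3 ± 41.9 CPM with GSK126 (SD, n = 2), a log2 change of -1.02 ± 0.08 (SE, edgeR adjusted p = 1.188e-19), or 0.493 of the DMSO level. In bulk RNA, fewer cells with DLK1 and less DLK1 per cell cannot be told apart.

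The change of DLK1 depended on the day. The effect of GSK126 in Kelly was 1.14 ± 0.12 lower on the log2 scale at day 5 than at day 2 (edgeR adjusted p = 4.425e-13), and DLK1 was the 1 member of 7 called for this difference, where 0.379% of all tested genes were called. The control libraries also differed between the days. In DMSO, DLK1 rose from day 2 to day 5 by 0.44 ± 0.08 on the log2 scale (edgeR adjusted p = 3.166e-04), again as the 1 member of 7, where 0.43% of all tested genes were called. That rise lost its call without Kelly DMSO day 2 replicate 1 (adjusted p = 0.0848). The GSK126 libraries of day 5 lay below those of day 2 without overlap, and this pair was not tested.

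In LAN-1, DLK1 stood at 16.9 to 29.6 CPM over all 8 libraries. It was 20.1 and 27.6 CPM in DMSO and 25.0 and 29.6 CPM with GSK126 at day 5, which overlap, and the log2 change was 0.19 ± 0.26 (edgeR adjusted p = 0.787). The day 5 effect differed between the lines by 1.21 ± 0.28 on the log2 scale (LAN-1 minus Kelly, edgeR adjusted p = 0.00366). Without LAN-1 DMSO day 5 replicate 1 this difference was not called (adjusted p = 0.136). Over the members, 2 of 7 were called for a difference between the lines, where 1.85% of all tested genes were called. DLK1 was called in the higher direction, with 0.919% of all tested genes, and NDN in the lower direction, with 0.927%.

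RTL1, a coding gene made from an ancient retrotransposon and read from the paternal copy, belongs to the same imprinted domain as DLK1. It lies on chromosome 14 at 101346090 to 101370059 on the minus strand. In Kelly it held 123.3 and 175.8 CPM in DMSO and 156.4 and 168.1 CPM with GSK126 at day 2. At day 5 it held 206.7 and 215.2 CPM in DMSO and 85.6 and 95.7 CPM with GSK126. The day 5 change was -1.22 ± 0.13 on the log2 scale (edgeR adjusted p = 2.708e-12), and the day difference of the effect was -1.30 ± 0.18 (edgeR adjusted p = 2.007e-07). The values of RTL1 thus ran in the same order over the Kelly groups as those of DLK1. Its rise in DMSO, 0.47 ± 0.12 (edgeR adjusted p = 0.0433), lost its call with DESeq2 (0.807), with a replicate block, and without 3 of the 4 libraries compared, namely Kelly DMSO day 2 replicate 1 and day 5 replicates 1 and 2 (up to 0.694).

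MEG3, the maternal non-coding RNA of that domain, starts 41.2 kb downstream of the end of DLK1 and ends 18.7 kb before RTL1. A single read of MEG3 was counted over all 16 libraries, in Kelly GSK126 day 2 replicate 2 (0.634 CPM, exact 95% counting interval 0.0161 to 3.54). The 0 reads in the 8 LAN-1 libraries together allow a level of up to 0.284 CPM. Intervals and floors cover counting error only. MEG8, a further maternal RNA of the domain, had 2 reads in Kelly and 0 in LAN-1.

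**Figure D3:**
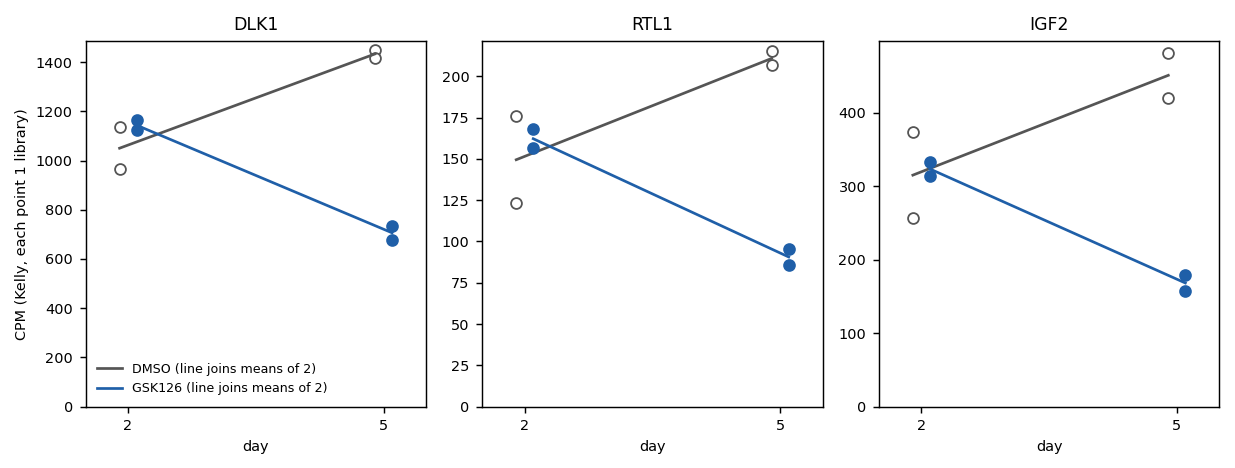
Levels of DLK1, RTL1 and IGF2 in Kelly in CPM on the vertical axis (linear, from 0) against the day of sampling on the horizontal axis, with each point 1 library, open grey for DMSO and filled blue for GSK126, and lines joining means of 2. At day 2 the values of DMSO and GSK126 overlap for all 3 genes, and at day 5 every GSK126 library lies below every DMSO library, as for DLK1 at 735.9 and 676.6 against 1448 and 1418 CPM.

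IGF2, the fetal growth factor next to H19 on chromosome 11, fell in Kelly at day 5 by 1.42 ± 0.11 on the log2 scale (edgeR adjusted p = 9.111e-19). The day 5 effect differed between the lines by 1.81 ± 0.18 (LAN-1 minus Kelly, edgeR adjusted p = 1.85e-13). In LAN-1 it held 151.5 and 146.5 CPM in DMSO and 116.8 and 124.6 CPM with GSK126 at day 2. At day 5 it held 148.2 and 134.5 CPM in DMSO and 165.55 and 212.55 CPM with GSK126. Neither pair overlapped (36% and 44.2% of all tested genes), and neither change was called. Its rise in Kelly DMSO, 0.49 (edgeR adjusted p = 0.00383), lost its call with DESeq2 (0.133) and without Kelly DMSO day 2 replicate 1 or day 5 replicate 1. The DLK1, RTL1 and IGF2 values come from the same libraries and share their controls.

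NDN encodes necdin, a MAGE family protein that restrains the growth of neurons and their precursors. It is a gene of 1 exon on chromosome 15 at 23930547 to 23932452 on the minus strand, in the region lost in Prader-Willi syndrome. In Kelly DMSO, replicate 1 held 0 reads at day 2 and 1 read at day 5, and replicate 2 held 10 and 12 reads (6.15 and 7.25 CPM). With GSK126 the libraries held 8.52 and 10.2 CPM at day 2 and 21.2 and 27.3 CPM at day 5. The day 5 values with GSK126 lay above every other Kelly library. At day 5 the mean was 4.00 ± 4.60 CPM in DMSO and 24.3 ± 4.35 CPM with GSK126 (SD, n = 2), a log2 change of 2.47 ± 0.42 (edgeR adjusted p = 1.101e-05), or 5.54-fold.

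The size of the NDN change rested on which control was read. Without Kelly DMSO day 5 replicate 1 it was 1.74 (adjusted p = 0.00828), and without replicate 2, whose partner held 1 read, it was 4.87 (adjusted p = 1.756e-06). The call held in each case. At day 2 the change was 1.34 ± 0.54 (edgeR adjusted p = 0.501).

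In LAN-1, NDN was already at the level that Kelly reached. The libraries held 20.3 to 22.3 CPM in DMSO and 17.8 to 27.7 CPM with GSK126 at day 2. At day 5 they held 19.4 and 20.9 CPM in DMSO and 21.6 and 14.2 CPM with GSK126, which overlap. The log2 change was -0.10 ± 0.33 at day 5 (edgeR adjusted p = 0.93). The day 5 effect differed between the lines by -2.57 ± 0.55 on the log2 scale (LAN-1 minus Kelly, edgeR adjusted p = 0.00206). That difference was -1.84 and not called without Kelly DMSO day 5 replicate 1 (adjusted p = 0.0605), and -4.98 without replicate 2.

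MAGEL2, a MAGE family protein, works with a ubiquitin ligase in protein sorting. Its gene lies 37.5 kb from NDN at its nearest point and is read in the same direction. In Kelly all DMSO libraries and the GSK126 libraries of day 2 held 0 reads, and the GSK126 libraries of day 5 held 1 and 2. Those 3 reads lie at the floor of 3 counts used here, so no fold is given. In LAN-1 the libraries held 0 or 1 read, except for LAN-1 GSK126 day 5 replicate 1 with 11 reads (7.65 CPM, exact 95% counting interval 3.82 to 13.7). Its duplicate held 1 read. Over the group, 12 reads with GSK126 stood against 1 read in DMSO at day 5, a ratio of 13.5 (exact 95% counting interval 2.00 to 576.5), which rests on that 1 library.

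SNRPN, which encodes a splicing protein of neurons, had 1 read over the 16 libraries, in Kelly GSK126 day 5 replicate 2. Of the 1468 bases of its canonical transcript, 55.4% also lie in transcripts of SNURF, the reading frame with which it shares its RNA, and SNURF had 0 reads throughout. How reads shared by several genes were counted is not given in the sources used here, so the SNRPN and SNURF rows are uncertain. Other RNAs of the same stretch did have reads. PWAR5 stood at 20.8 to 54.6 CPM, IPW at 6.15 to 46.3 CPM and UBE3A, the maternal ubiquitin ligase gene of neurons, at 135 to 216 CPM over the 16 libraries. PWAR5 was looked at after the SNRPN value was seen.

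PEG3 encodes a large zinc finger protein, paternally read, that regulates transcription and acts in growth and maternal behaviour. It lies on chromosome 19 at 57321445 to 57352096 on the minus strand. In Kelly DMSO the libraries held 39.3 and 36.9 CPM at day 2 and 29.7 and 32.6 CPM at day 5. With GSK126 they held 56.0 and 54.6 CPM at day 2 and 61.1 and 59.2 CPM at day 5. On each day every GSK126 library lay above every DMSO library. In Kelly the groups also did not overlap for 36.7% of all tested genes at day 2 and 46.8% at day 5. At day 5 the mean was 31.2 ± 2.05 CPM in DMSO and 60.2 ± 1.34 CPM with GSK126 (SD, n = 2), a log2 change of 0.94 ± 0.20 (edgeR adjusted p = 4.736e-04), or 1.92-fold.

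At day 2 the PEG3 change in Kelly was 0.54 ± 0.19 (edgeR adjusted p = 0.379) and was not called. In LAN-1, PEG3 held 78.95 and 79.7 CPM in DMSO and 78.7 and 73.1 CPM with GSK126 at day 2. At day 5 it held 68.5 and 81.9 CPM in DMSO and 100.2 and 84.4 CPM with GSK126. The 2 day 5 groups did not overlap, yet the change of 0.32 ± 0.16 was not called (edgeR adjusted p = 0.277). The day 5 effect of the lines differed by -0.61 ± 0.25 (LAN-1 minus Kelly, edgeR adjusted p = 0.246), so a difference between the lines was not detectable here.

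All 7 tested members had groups that did not overlap in Kelly at day 5, and so did 46.8% of all tested genes. H19 is among the 7 with 1 read in each of its 4 libraries, so that its order there reflects library size. The summed level of 8 neuroblastoma markers in the same libraries was 8032 to 8329 CPM in DMSO and 5609 to 5724 CPM with GSK126. The summed level of 6 fibroblast markers was 99.7 to 116.7 CPM in DMSO and 284 to 294.2 CPM with GSK126. Over the 8 Kelly libraries COL1A1 ran from 9.83 to 124.7 CPM, COL3A1 from 1.23 to 54.6 and PDGFRA from 0.604 to 28.5. PDGFRB ran from 40.2 to 94.9 and LUM from 0 to 7.33, and DCN had 1 read in all. Of the neuroblastoma markers, CHGA ran over those libraries from 1785 to 2811 CPM and MYCN from 1890 to 2858. HAND2 ran from 597 to 1005, DBH from 310 to 823, TH from 125.5 to 291.5 and GATA3 from 471 to 585. PHOX2A ran from 207 to 262 and ISL1 from 141.5 to 178.3. For 5 Schwann cell markers the sums were 1.81 to 2.97 and 8.965 to 12.15 CPM, with S100B at 0, and for 4 endothelial markers 2.23 to 3.02 and 7.59 to 16.3 CPM. The part of these shifts in the DLK1, NDN and PEG3 results was not tested.

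KCNQ1OT1 is a long non-coding RNA read from the paternal copy against KCNQ1, and it silences neighbouring genes on the same chromosome, among them the growth inhibitor CDKN1C. It lies on chromosome 11 at 2618538 to 2721233 on the minus strand, within the span of KCNQ1. In LAN-1 DMSO the libraries held 35.0 and 45.2 CPM at day 2 and 39.5 and 28.4 CPM at day 5. With GSK126 they held 36.5 and 46.1 CPM at day 2 and 93.2 and 74.5 CPM at day 5. The day 5 libraries with GSK126 were higher than all 14 others of either line. At day 5 the mean was 33.9 ± 7.82 CPM in DMSO and 83.9 ± 13.2 CPM with GSK126 (SD, n = 2), a log2 change of 1.31 ± 0.20 (edgeR adjusted p = 5.251e-07), or 2.48-fold.

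The LAN-1 GSK126 duplicates of day 5 stood apart more than other duplicates. The KCNQ1OT1 change was 1.11 without replicate 1 (adjusted p = 0.00201) and 1.44 without replicate 2 (adjusted p = 6.423e-07). In LAN-1 the effect was larger at day 5 than at day 2 by 1.26 ± 0.29 on the log2 scale (edgeR adjusted p = 0.013), and KCNQ1OT1 was the 1 member of 7 called for this, where 0.539% of all tested genes were called. Without LAN-1 DMSO day 2 replicate 2, DMSO day 5 replicate 2, GSK126 day 2 replicate 1 or GSK126 day 5 replicate 1 that difference was not called (adjusted p up to 0.199). DESeq2 gave no adjusted p for either result, and its unadjusted p was 2.085e-06 for the day 5 effect and 0.00138 for the day difference.

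In Kelly, KCNQ1OT1 held 51.3 and 37.5 CPM in DMSO and 60.3 and 60.0 CPM with GSK126 at day 5. These do not overlap, and the change of 0.46 ± 0.19 was not called (edgeR adjusted p = 0.182). The day 5 effect of the lines differed by 0.85 ± 0.28 (LAN-1 minus Kelly, edgeR adjusted p = 0.0936), which also was not called. KCNQ1 had 0 reads in all 16 libraries. Whether counting used strand is not given in the sources used here, and without it reads from KCNQ1OT1 and from introns of KCNQ1 cannot be told apart. CDKN1C, named here after its values were seen, held 2 to 8 reads per group in LAN-1, and its day 5 change was 1.12 ± 0.91 (edgeR adjusted p = 0.592).

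MALAT1 and NEAT1, other RNAs that stay in the nucleus, were looked at after the rise of KCNQ1OT1 was seen. The day 5 change of MALAT1 in LAN-1 was -0.46 ± 0.20 (edgeR adjusted p = 0.302). That of NEAT1, at 1.10 to 6.92 CPM in LAN-1, was -0.03 ± 0.73 (edgeR adjusted p = 1). Between the day 5 groups of LAN-1, 3 of the 7 members had groups that did not overlap, KCNQ1OT1, PEG3 and H19, and so did 44.2% of all tested genes. The summed level of the 8 neuroblastoma markers there was 3114 to 3120 CPM in DMSO and 3251 to 3594 CPM with GSK126. For the 6 fibroblast markers it was 67.85 to 69.35 CPM in DMSO and 109.6 to 117.6 CPM with GSK126. Their part in the KCNQ1OT1 result was not tested.

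H19, the maternal non-coding RNA that shares enhancers with IGF2, lies on chromosome 11 at 2016396 to 2025782 on the minus strand, 124.6 kb from IGF2. In LAN-1 it held 345.7 and 315.3 CPM in DMSO and 262.8 and 288.4 CPM with GSK126 at day 2. At day 5 it held 356.6 and 351.7 CPM in DMSO and 310.2 and 262.9 CPM with GSK126. On each day every GSK126 library lay below every DMSO library. In LAN-1 the groups also did not overlap for 36% of all tested genes at day 2 and 44.2% at day 5. The changes were -0.26 ± 0.10 at day 2 (edgeR adjusted p = 0.627) and -0.29 ± 0.10 at day 5 (edgeR adjusted p = 0.0939), and neither was called. Without LAN-1 GSK126 day 5 replicate 1 the day 5 change was -0.43 and was called (adjusted p = 0.0233). In Kelly, H19 had 0 or 1 read in each library, 5 reads in all.

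PEG10, a retrotransposon-derived gene needed for the placenta, and MEST, a member of the alpha/beta hydrolase fold family active in mesoderm, lie apart from each other on chromosome 7, at 94285637 to 94299007 and 130126012 to 130146306, both on the plus strand. PEG10 ranged from 838.5 to 981.1 CPM in the Kelly libraries. Its change with GSK126 was 0.14 ± 0.08 at day 2 and 0.15 ± 0.08 at day 5 (edgeR adjusted p = 0.365). MEST ranged from 102.8 to 139.6 CPM, with a change of 0.15 ± 0.13 at day 2 and 0.24 ± 0.14 at day 5 (edgeR adjusted p = 0.399). Neither gene was called on either day. In LAN-1, PEG10 held 0 to 9 reads per library and MEST 0 or 1, with 0 MEST reads in all 4 GSK126 libraries, so no change was read there.

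Culture time alone was called for no member in LAN-1. From day 2 to day 5 in LAN-1 DMSO, edgeR called 0 of 7 members, where 0.438% of all tested genes were called, with 0 at an unadjusted p under 0.05 (7.36% of all tested genes) and 0 by DESeq2 or limma-voom. NDN, PEG3 and KCNQ1OT1 were called for culture time in neither line, which does not show that they stayed level.

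Without GSK126 the lines differed in most of these genes. A member passes the filter on low counts through the line in which it is high, so the values are a description and the count of calls is not support. By edgeR all 7 tested members were called for LAN-1 DMSO against Kelly DMSO, 3 higher and 4 lower, where 67.7% of all tested genes were called (33.5% higher and 34.2% lower). The difference of LAN-1 from Kelly on the log2 scale was -5.89 for DLK1 and -8.30 for PEG10. No standard error is given for either, as the one used here can lie below counting error for such large changes. PEG10 had only 5 and 11 reads in LAN-1 DMSO at day 2 and day 5. Over the alternatives and left-out libraries its difference ran from -8.94 to -7.75. MEST had 648 reads in the 4 Kelly DMSO libraries and 2 in those of LAN-1, a ratio of 321 (exact 95% counting interval 88.5 to 2656).

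H19 ran the other way, with 1946 reads in LAN-1 DMSO and 3 in Kelly DMSO, a ratio of 654.7 (exact 95% counting interval 223.7 to 3177). NDN was 2.36 ± 0.32 higher in LAN-1 on the log2 scale, a value that moved to 5.03 without Kelly DMSO day 2 replicate 2 and to 3.56 without Kelly DMSO day 5 replicate 2. PEG3 was 1.16 ± 0.13 higher in LAN-1. KCNQ1OT1 was nearest to equal at -0.42 ± 0.14 (edgeR adjusted p = 0.00788), and this call was lost with DESeq2 (adjusted p = 0.0579), with a replicate block (0.0681), and on leaving out any 1 of the following 4 libraries (up to 0.0917): Kelly DMSO day 2 replicate 2, Kelly DMSO day 5 replicate 1, LAN-1 DMSO day 2 replicate 1 and LAN-1 DMSO day 5 replicate 2. Groups did not overlap for 6 of the 7 members, all but KCNQ1OT1, and for 57.6% of all tested genes.

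**Figure D4:**
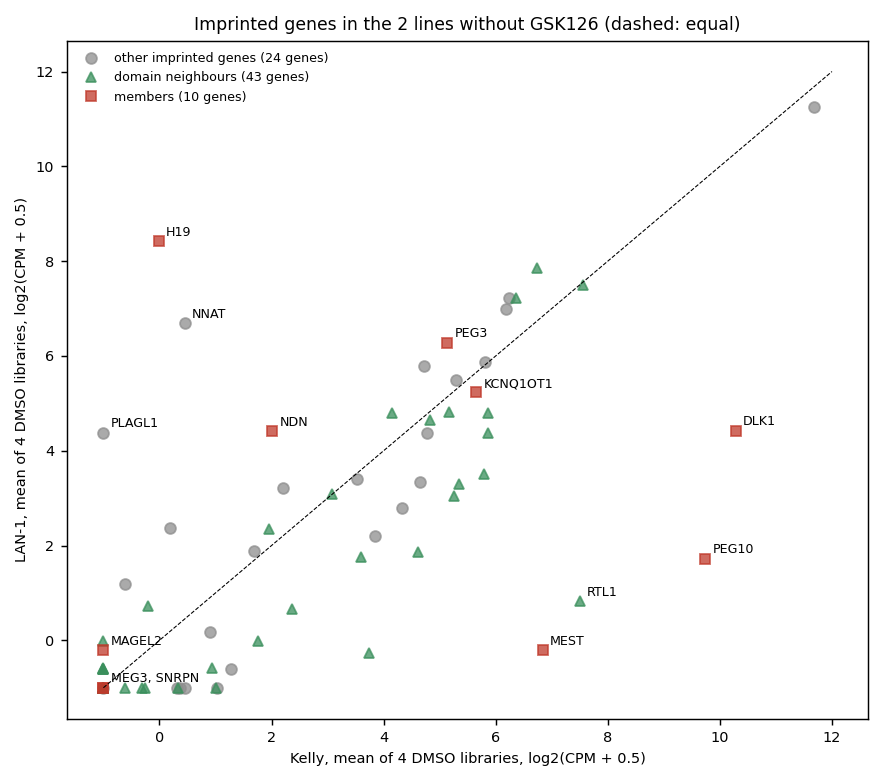
Mean level over the 4 DMSO libraries in Kelly (horizontal axis) and LAN-1 (vertical axis), as log2(CPM + 0.5), with a dashed line at equal levels. Red squares are the 10 imprinted genes, green triangles 43 neighbours from their imprinted domains, and grey circles 24 other genes listed as imprinted. DLK1, PEG10, MEST and the neighbour RTL1 lie far to the Kelly side, and H19, NNAT and PLAGL1 far to the LAN-1 side.

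Levels of different genes were compared per length, as CPM divided by the transcript length in kilobases (RPKM, mean ± SD, n = 4 DMSO libraries). In Kelly, PEG10 and DLK1 were the highest members at 331 ± 4.56 and 267 ± 49.9 RPKM on their canonical transcripts. On the longest annotated transcript PEG10 was 129 ± 1.78 RPKM, so the order of these genes depends on the transcript taken. MEST followed at 43.0 ± 3.45 RPKM, then PEG3 at 3.96 ± 0.49 and NDN at 1.855 ± 1.94. In LAN-1, H19 was highest at 309.5 ± 16.8 RPKM (142.9 ± 7.75 on the longest transcript), followed by NDN at 10.9 ± 0.64, PEG3 at 8.83 ± 0.68 and DLK1 at 4.49 ± 1.00. The place of KCNQ1OT1 is not fixed, because its annotated transcripts run from 679 bases to 91667 bases.

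The other genes of the members' imprinted domains were read from a list. Of 44 listed neighbours 43 had a row and 17 were tested. Of the 17, edgeR called RTL1 in Kelly at day 5 and 0 others in any of the 4 GSK126 comparisons. At 1 of 17 against 4.9% of all tested genes in Kelly at day 5, this count lies near the background. The median change of the tested neighbours in Kelly at day 5 was 0.06, against 0.0079 over all tested genes. For LAN-1 it was 0.02, against 0. At an unadjusted p under 0.05 there were 2 neighbours in Kelly at each day and 1 in LAN-1 at each day. Over all tested genes that threshold was passed by 7.48% at day 2 and 16.5% at day 5 in Kelly, and by 6.24% and 16.7% in LAN-1. DESeq2 and limma-voom called the same number as edgeR in each of these 4 comparisons.

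Genes that keep or remove imprints were read from a list of 22, of which 17 were tested. For LAN-1 at day 5, edgeR called 3 of the 17, with 2 higher and 1 lower, against 3.66% of all tested genes (2.45% higher and 1.21% lower). DESeq2 called 2 there and limma-voom 3. At an unadjusted edgeR p under 0.05 there were 4 of the 17, against 16.7% of all tested genes. Groups did not overlap for 9 of the 17, against 44.2% of all tested genes. TET3, an enzyme that oxidises methylated cytosine, held 282.5 and 294.1 CPM in DMSO and 379.1 and 395.1 CPM with GSK126 (lowest and highest), a change of 0.43 ± 0.10 (edgeR adjusted p = 0.00347). TET1, of the same family, changed by 0.45 ± 0.13 (edgeR adjusted p = 0.0226). SMCHD1, a chromosomal protein that helps silence imprinted clusters, fell by 0.56 ± 0.12 (edgeR adjusted p = 0.00168).

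Each of the 3 calls was lost on leaving out at least 1 library. TET3 was not called without LAN-1 DMSO day 5 replicate 1 (adjusted p = 0.0966), and SMCHD1 was not called without that library or without LAN-1 GSK126 day 5 replicate 2 (up to 0.0981). TET1 was not called by DESeq2 (0.115), nor without LAN-1 DMSO day 5 replicate 2 or either GSK126 library of day 5 (up to 0.462). In Kelly at day 5 edgeR called 0 of the 17, with 2 at an unadjusted p under 0.05 (16.5% of all tested genes) and 0 by DESeq2 or limma-voom. At day 2 edgeR, DESeq2 and limma-voom called 0 in each line, with 0 in Kelly and 1 in LAN-1 at an unadjusted p under 0.05 (7.48% and 6.24% of all tested genes). The list median was 0.01 in Kelly and 0.02 in LAN-1 at day 5.

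Of 24 genes listed as imprinted in other domains, 14 were tested. Of these, edgeR called 1, SFMBT2, in Kelly at day 5, where 4.9% of all tested genes were called. By edgeR this count too lies near the background. At an unadjusted edgeR p under 0.05 there were 4 of the 14 in that comparison, against 16.5% of all tested genes. There DESeq2 called 1, which was not SFMBT2, and limma-voom called 2. SFMBT2, a Polycomb-related protein, changed by 0.93 ± 0.30 (edgeR adjusted p = 0.0454), and the call was lost on leaving out any 1 of the 4 libraries compared (adjusted p up to 0.442). It was also lost with a replicate block (0.0529), with no filter on low counts (0.0809) and with DESeq2 (0.654). The list median in Kelly at day 5 was 0.25, against 0.0079 over all tested genes. In LAN-1 at day 5 and in both lines at day 2 edgeR, DESeq2 and limma-voom called 0, with 1, 1 and 0 at an unadjusted p under 0.05 in LAN-1 at day 5, LAN-1 at day 2 and Kelly at day 2 (16.7%, 6.24% and 7.48% of all tested genes).

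For each called member the 3 genes with the most similar levels were found by Pearson's r of log2 CPM over the 16 libraries, after subtracting the mean of each line. These are descriptions over libraries that share groups and depth, and the members' own changes with GSK126 enter them. DLK1 was followed most closely by SLC7A5 (r = 0.897), an amino acid transporter, GPR37 (0.874) and DDC (0.869), the decarboxylase that makes dopamine. For NDN they were PIEZO2 (0.916), a mechanosensitive channel, NUDT10 (0.906) and FAM135B (0.901). For PEG3 they were OLFM2 (0.909), APCDD1 (0.894), an inhibitor of Wnt signalling, and CECR2 (0.87). For KCNQ1OT1 they were MCC (0.913), MPRIP (0.845) and SYT6 (0.839). PIEZO2, FAM135B and APCDD1 had 0 reads in LAN-1, so their likeness comes from Kelly alone.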

How the data were processed

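Whole-read counts per gene symbol were deposited for 16 libraries, with no normalization. The tools FastQC, TopHat2 and featureCounts and the build GRCh37 (hg19) are listed, without roles or versions, per the submitters' processing notes. Annotation, strand setting and the handling of shared reads are not given in the sources used here. From these counts, edgeR 4.0.16 (R 4.3.3) was run with filterByExpr at a minimum count of 10 (11863 of 25728 genes), TMM factors of 0.9781 to 1.024, 1 mean per group, and the robust quasi-likelihood test with 8 residual degrees of freedom. P-values were adjusted by Benjamini-Hochberg over all tested genes. Standard errors were taken as the absolute log2 change divided by the square root of the edgeR F statistic. For large changes on few reads they can lie below counting error. The common biological coefficient of variation was 5.31%. The scripts were tested on simulated data. Alternatives were RLE scaling, library totals, no filter, DESeq2 1.42.0, limma-voom (limma 3.58.1), a replicate block, the libraries of 1 line, and leaving out each library. The members and lists were chosen with earlier results of these data known. Members are named throughout, with 3 like genes per called member, and IGF2 and EZH2 are named besides the lists. Genes of a list are named where called with GSK126. Further genes of the lists, among them MEG8, SNURF, IPW, UBE3A and KCNQ1, were named outside that rule. Positions are from GENCODE 44 on GRCh37, and promoter sequences from RefSeq GRCh38.p14, which held 6 of the 10 members. Of the cell type markers, 2 are not reported here and are left out of the sums.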

Additional observations from a re-analysis of the deposited data

Results flagged for a closer look

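A change with GSK126 differed between the lines or between the days for 3 genes, each by the test of the difference itself in edgeR. For DLK1 the day 5 effect in LAN-1 minus that in Kelly was 1.21 ± 0.28 on the log2 scale (adjusted p = 0.00366). For NDN the same difference was -2.57 ± 0.55 (adjusted p = 0.00206). For DLK1 in Kelly the effect at day 5 minus that at day 2 was -1.14 ± 0.12 (adjusted p = 4.425e-13). For KCNQ1OT1 in LAN-1 it was 1.26 ± 0.29 (adjusted p = 0.013). The DLK1 and NDN line differences each lost their call without 1 library, and the KCNQ1OT1 day difference on leaving out 1 library for 4 of the 8, while the DLK1 day difference in Kelly kept its call under every alternative run.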

How the results depend on the processing

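Of 27 called gene comparisons, 16 kept their call under every alternative that gave an adjusted p and without each library in turn. The GSK126 effects on DLK1, NDN and PEG3 in Kelly and on KCNQ1OT1 in LAN-1 at day 5 are among the 16. With DESeq2 the number of members called was 0 for the LAN-1 day 5 effect (1 in edgeR), 0 for the LAN-1 day difference (1) and 1 for the line difference of the effect (2), because DESeq2 gave no adjusted p for KCNQ1OT1 and NDN there. Without 1 library each, the members called ran from 1 to 2 for the LAN-1 day 5 effect, from 1 to 2 for the line difference of the effect, from 0 to 1 for the LAN-1 day difference and from 0 to 1 for culture time in Kelly. Reversed signs arose only in uncalled changes in LAN-1 with 1 library left out. Their ranges were -0.0384 to 0.42 for DLK1 at day 5, -0.25 to 0.39 for NDN at day 2, -0.49 to 0.10 for NDN at day 5, and -0.13 to 0.24 for KCNQ1OT1 at day 2, where the reversed values were -0.126 and -0.131. The cause was not tested.

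Over all genes DESeq2 called fewer than edgeR, with 152 against 581 in Kelly and 149 against 434 in LAN-1 at day 5, 2 against 22 and 2 against 18 at day 2, 63 against 219 for the line difference, 15 against 45 and 37 against 64 for the day differences, and 15 against 51 and 21 against 52 for culture time. Without 1 library each, the counts over all genes at day 5 had a range of 238 to 331 for Kelly and 136 to 729 for LAN-1, and at day 2 of 2 to 11 and 3 to 14. They were 113 to 480 for the line difference, 22 to 42 and 19 to 225 for the day differences of Kelly and LAN-1, and 8 to 40 and 21 to 32 for culture time. No strong pairing by replicate number was seen: deviations of libraries with the same number correlated between -0.183 and 0.14 over 6479 genes. Whether libraries shared a batch was not tested. With a replicate block the members called were the same in number except for the lines in DMSO, with 6 in place of 7, and the Kelly day 2 count over all genes was 8 in place of 22. With 2 libraries per group of 912095 to 1666190 counts, changes in members at or under 3 reads could not be measured.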

Other observations

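The lines without GSK126 were also compared in neighbours of the 10 and in genes listed as imprinted in other domains. This is a description, since a gene can pass the filter on low counts through the line in which it is high. Of 17 tested neighbours from the members' domains, edgeR called 3 higher and 10 lower in LAN-1 DMSO than in Kelly DMSO, where 33.5% of all tested genes were called higher and 34.2% lower, 67.7% in all. Their median was -1.51 on the log2 scale against -0.02 over all tested genes. The genes named in this paragraph were chosen after their values were seen. Around PEG10, the neighbours SGCE, a sarcoglycan, PPP1R9A, an actin-binding protein of synapses, CASD1 and PON2 were all lower in LAN-1, by -2.28 ± 0.22, -2.37 ± 0.18, -1.51 ± 0.16 and -3.02 ± 0.30. In the DLK1 domain RTL1 changed by -7.21, with only 2 and 5 reads in LAN-1 DMSO at day 2 and day 5. BEGAIN, next to that domain, had 73 reads in the 4 Kelly DMSO libraries and 2 in those of LAN-1, a ratio of 36.2 (exact 95% counting interval 9.66 to 304.3).

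Of 14 tested genes listed as imprinted in other domains, edgeR called 6 higher and 4 lower in LAN-1. This count lies near the 67.7% of all tested genes. NNAT, a small membrane protein of developing neurons, held 59.1 to 107.3 CPM in LAN-1 and 0 to 3.80 CPM in Kelly. PLAGL1, a zinc finger protein that regulates other imprinted genes, had 0 reads in the 8 Kelly libraries and 116 in the 4 LAN-1 DMSO libraries, at least 39.0-fold higher in LAN-1 against a floor of 3 counts over the Kelly DMSO libraries.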
